A study of Mus musculus with 18 samples.

Results

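The comparison described here set the choroid plexus of MRL/lpr mice at 16 weeks of age against that of MRL/lpr mice at 12 weeks, across all genes with enough counts to be tested. It used 12 of the 18 RNA sequencing libraries, 6 per age, chosen by their labels for strain and age. The lpr allele of Fas in MRL/lpr mice disrupts the gene of a death receptor on lymphocytes, and these mice develop a lupus-like autoimmune disease with age. The other 6 libraries, 3 per age, came from MRL/+ mice, which share the MRL background without the lpr allele, and are used here only to set the age difference beside that of the control strain. The labels give no treatment, sex, time of day or disease score, and nothing in them ties each library to an animal of its own. P-values therefore speak only of the spread among these libraries, which may in part be technical. Levels are CPM, read counts scaled to library size, given as mean ± SD with n = 6 per MRL/lpr group and n = 3 per MRL/+ group unless the lowest, median and highest library are named.

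The choroid plexus is a folded epithelium around leaky capillaries in the brain ventricles. It secretes cerebrospinal fluid and forms the barrier between blood and that fluid, and leukocytes can collect in the stroma beneath the epithelium. In MRL/lpr mice such infiltrates can take on features of lymphoid tissue, with B cells, T cells, plasma cells and the chemokines that place them.

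Total counts ran from 11222854 to 14521531 in the 12 MRL/lpr libraries, and 16598 of 50584 genes were tested. The Y chromosome genes Ddx3y, Eif2s3y, Kdm5d and Uty had 0 counts in every library. Fas itself stood at 2.84 ± 1.58 CPM at 12 weeks and 3.01 ± 1.31 at 16 weeks; reads were counted over all its exons, and the level therefore does not test the labels. Some libraries stood apart. Summed over 11 pineal gland genes, replicates 1 and 4 of 12 weeks held 146 and 118 CPM, and no other MRL/lpr library held more than 22.6. Replicate 1 of 16 weeks was the highest of its group in all 25 type I interferon response genes. Replicate 6 of 16 weeks was the lowest MRL/lpr library in the summed B cell, T cell and immunoglobulin constant region genes.

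Few genes separated the ages. By edgeR's quasi-likelihood test at an adjusted p under 0.05, 6 of 16598 genes (0.0361%) were called, 3 higher at 16 weeks (Hsph1, Ahsa1 and Dusp6; 0.0181%) and 3 lower (among them Fscn2 and Dbp; 0.0181%). At an unadjusted p under 0.05 there were 475 higher genes (2.86%) and 642 lower genes (3.87%), 6.73% in all. The median log2 fold change over all genes was 0.017, and 53.2% of genes had a positive value. All 6 libraries of 16 weeks lay above all 6 of 12 weeks in 23 genes (0.139%) and below them in 44 (0.265%). The count of calls rests on the settings: it was 0 with the 12 MRL/lpr libraries alone, where Hsph1 and Dusp6 each had an adjusted p of 0.0537, 0 without the 2 libraries highest in pineal transcripts, and 36 higher and 48 lower with DESeq2, which kept all 6 genes. Scaling to the summed counts of the epithelium's own genes without Ttr raised the median of all genes from 0.017 to 0.285. It gave 4 higher and 0 lower calls, so directions here are relative to the bulk of genes. Most of that sum came from 1 gene, Enpp2 (4506516 counts at 12 weeks and 3549466 at 16 weeks). This scaling therefore follows Enpp2 more than the epithelium as a whole.

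**Figure D1:**
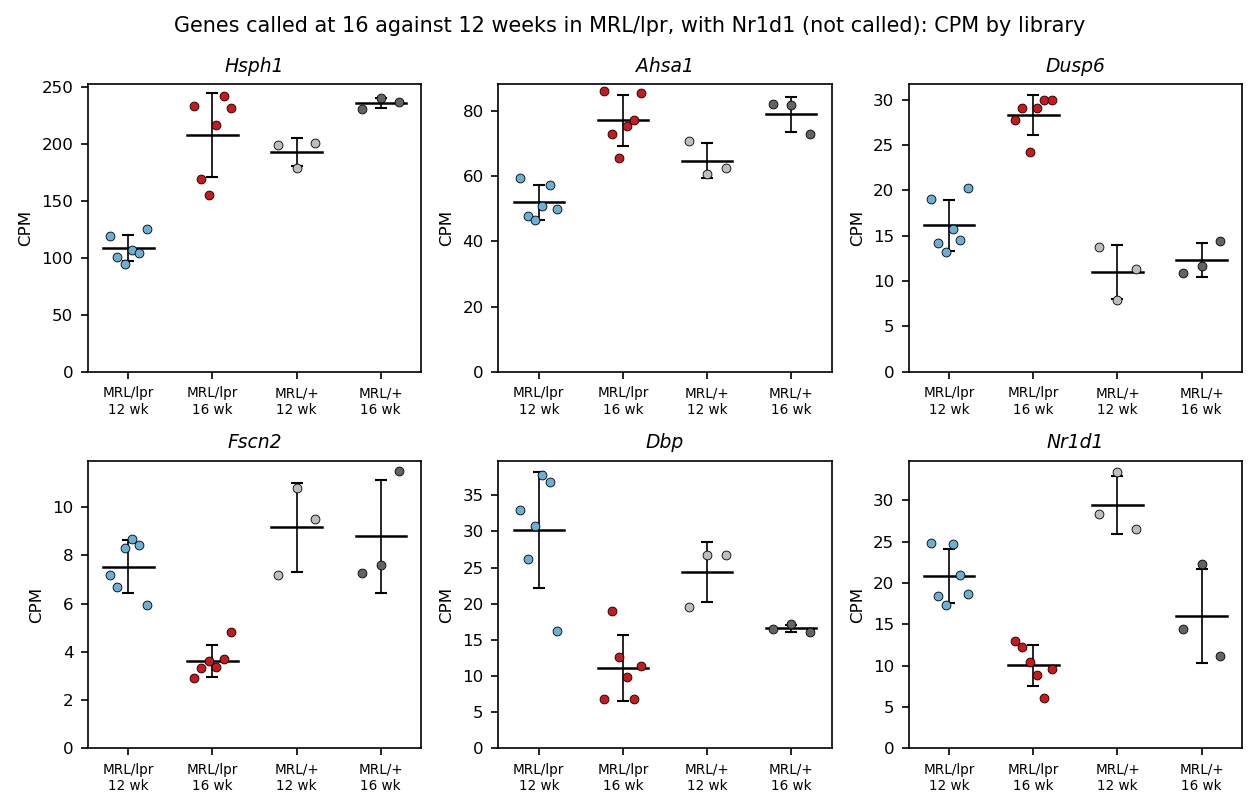
Points are the CPM of single libraries for 5 called genes and for Nr1d1, which missed the threshold; lines are group means and bars the SD (6 libraries per MRL/lpr group, 3 per MRL/+ group). The red points of MRL/lpr at 16 weeks lie all above or all below the blue points of 12 weeks in every panel but that of Dbp.

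Hsph1 and Ahsa1, which serve HSP70 and HSP90, rose at 16 weeks. Chaperones of the HSP110, HSP70 and HSP90 families hold unfolded proteins and pass them between each other, and many of their genes are driven by heat shock factor, which binds inverted repeats of the letters GAA. Hsph1 (chromosome 5, 149614287 to 149636376, minus strand), the HSP110 nucleotide exchange factor of HSP70, had the lowest adjusted p of all genes. The stretch of 30 bases at chr5:149636351-149636380 (GRCm38.p6, RefSeq, minus strand) is shown because it holds such a repeat, in capitals, which ends 25 bases before the RefSeq start.
Hsph1: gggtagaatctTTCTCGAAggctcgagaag
The gene as counted starts further upstream than the RefSeq start, so that 40 of the 250 bases before the RefSeq start, the repeat among them, lie inside it. The motif searched was GAANNTTC or TTCNNGAA, on both strands. It is found in 13% of 27025 promoters, taken as the 250 bases before each RefSeq start, and in 4 of the 9 heat shock and RNA stress genes that matched a promoter. A match is a description of these letters and not a measured binding site.

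Hsph1 ran from 95 CPM to 126 CPM at 12 weeks, with a median of 106. At 16 weeks it ran from 155 CPM to 242 CPM, with a median of 224. Every library of 16 weeks was above every library of 12 weeks. The means were 109 ± 11.6 and 208 ± 36.9 CPM, a 1.92-fold rise (log2 fold change 0.94, SE 0.11, adjusted p 0.0041). This call held in all 18 fits that each left out 1 library, with adjusted p between 0.000794 and 0.0245. It was lost without the 2 libraries highest in pineal transcripts, where the log2 fold change was 0.98 (adjusted p 0.0599). The MRL/+ libraries held 200, 179 and 201 CPM at 12 weeks and 231, 241 and 237 at 16 weeks, so all 6 lay above the MRL/lpr libraries of 12 weeks and within the range of those of 16 weeks.

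Ahsa1 (chromosome 12, 87266746 to 87273997), which stimulates the ATPase of HSP90, ran from 46.5 to 59.5 CPM at 12 weeks (median 50.3) and from 65.5 to 86.1 CPM at 16 weeks (median 76.2). These groups did not overlap either. The rise was 1.48-fold (log2 fold change 0.57, SE 0.09, adjusted p 0.024). In MRL/+ the log2 fold change of Ahsa1 was 0.29 (unadjusted p 0.031). The call was lost without MRL/lpr 12 weeks replicate 2, 3 or 4 (adjusted p 0.0873, 0.0952 and 0.0784), without 16 weeks replicate 5 or 6 (0.0774 and 0.0597) and without MRL/+ 12 weeks replicate 3 (0.0517).

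Of the 12 heat shock and RNA stress genes, 1 was called (Hsph1) and 10 had a positive log2 fold change. An unadjusted p under 0.05 was reached by 7 on the higher side and 1 on the lower. The list's median was 0.43 (0.19 in MRL/+, with 8 positive) against 0.017 for all genes in MRL/lpr. DESeq2 called 4 of the genes higher and 1 lower, and limma voom called 2 higher with a median of 0.26. Hspa8, the constitutive HSP70 of the cytosol, stood at 598 ± 74.1 and 846 ± 106 CPM (log2 fold change 0.50, adjusted p 0.152), without overlap between the ages. Hspa5, the HSP70 of the endoplasmic reticulum, stood at 1284 ± 104 and 1765 ± 355 CPM (0.46, adjusted p 0.297), also without overlap. The cochaperone gene Stip1, which links HSP70 to HSP90, stood at 147 ± 16.0 and 199 ± 23.1 CPM (0.44, adjusted p 0.142), and Ahsa2 at 12.9 ± 2.17 and 20.2 ± 3.66 (0.65, adjusted p 0.142). None of these 4 passed the test. Levels of the inducible HSP70 genes were low. Hspa1b stood at 0.508 ± 0.173 and 1.52 ± 0.833 CPM (1.58, adjusted p 0.199), and its near-identical copy Hspa1a at a log2 fold change of 0.50; reads may be split between the copies in ways the counting does not show. Hspa1b ran from 2.19 to 7.63 CPM in the 6 MRL/+ libraries, above most of the MRL/lpr libraries. The log2 fold change of Dnajb1, a cochaperone of HSP70, was 0.03, and that of the mitochondrial chaperonin Hspd1 was 0.19.

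The unfolded protein response, which raises folding capacity in the endoplasmic reticulum, had values of like size in both strains. All 16 of its genes had a positive log2 fold change in MRL/lpr, 7 with an unadjusted p under 0.05 and 0 called, with a median of 0.37; the median in MRL/+ was 0.35. DESeq2 called 4 of them higher, and limma voom called 2 with a median of 0.24. Xbp1, a transcription factor of this response and of plasma cells, stood at 128 ± 30.5 and 201 ± 34.0 CPM (log2 fold change 0.65, adjusted p 0.172; 0.72 in MRL/+). Manf, a secreted factor of endoplasmic reticulum stress, had a log2 fold change of 0.62 (adjusted p 0.249) in MRL/lpr and 0.90 in MRL/+. Creld2 had 0.73 (adjusted p 0.267) and 0.65.

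**Figure D2:**
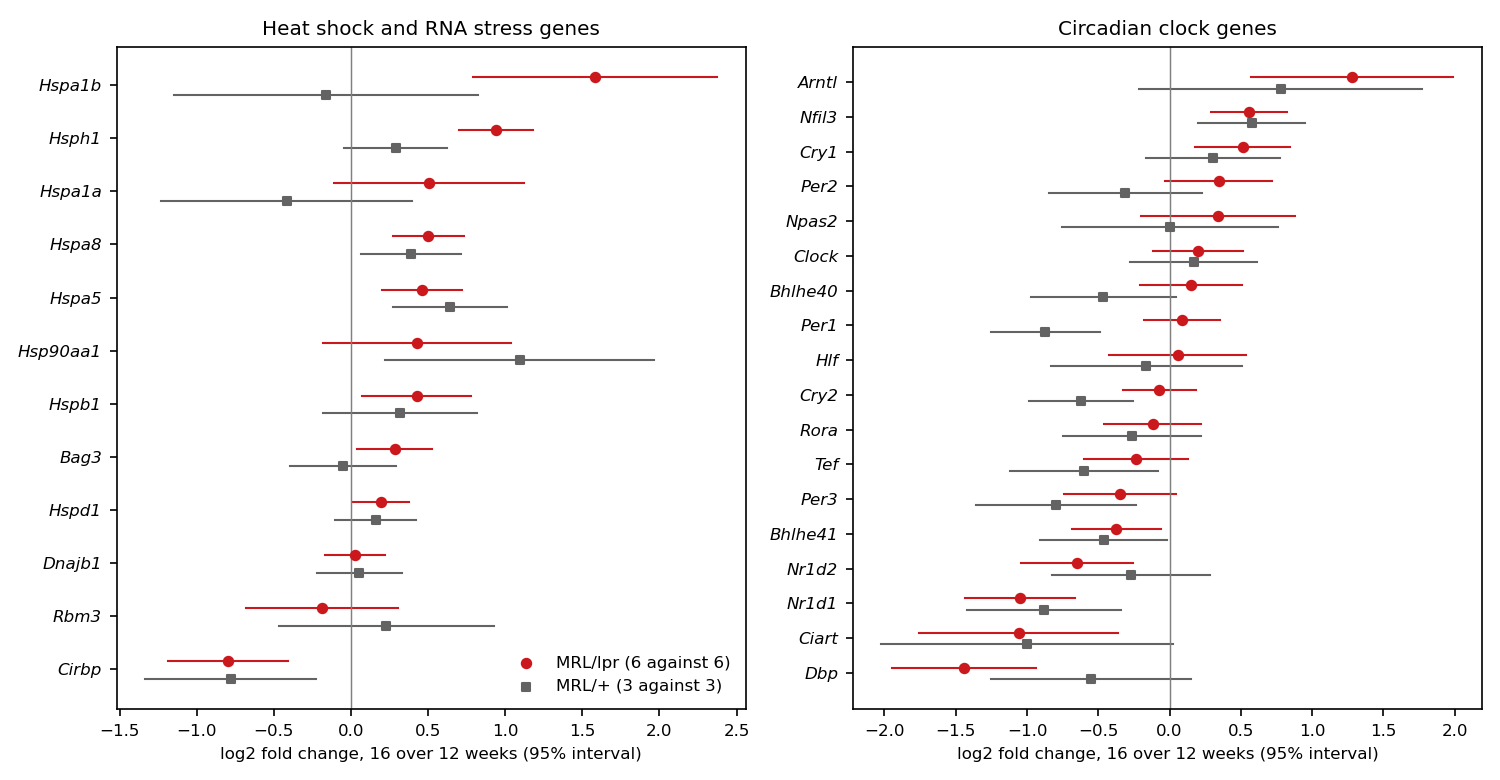
Log2 fold changes of 16 over 12 weeks with their 95% intervals for the heat shock and RNA stress genes (left) and 18 circadian clock genes (right), in MRL/lpr (red circles, 6 against 6 libraries) and MRL/+ (grey squares, 3 against 3). Hsph1 and Dbp are the members called in MRL/lpr, and most chaperones lie right of 0 in both strains.

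Dbp, an output gene of the circadian clock, fell at 16 weeks, and Nr1d1 came close to the threshold. In the clock, BMAL1 (from Arntl) and CLOCK drive Per, Cry, Dbp and the Nr1d genes through E-boxes, and the product of Nr1d1 represses Arntl in turn. The labels give no time of day at collection, so clock phase and age cannot be told apart. Dbp (chromosome 7, 45705088 to 45710203), a PAR bZIP transcription factor with a strong daily rhythm, ran from 16.3 to 37.8 CPM at 12 weeks (median 31.9) and from 6.78 to 19.0 CPM at 16 weeks (median 10.6). The groups overlapped through replicate 6 of 12 weeks (16.3 CPM) and replicate 2 of 16 weeks (19.0 CPM). Dbp fell 2.72-fold (log2 fold change -1.44, SE 0.24, adjusted p 0.040). It was called in 2 of 18 fits that each left out 1 library, those without these same 2 libraries, and its adjusted p over the 18 fits ran from 0.00821 to 0.126; its log2 fold change stayed between -1.66 and -1.30. In MRL/+ it had a log2 fold change of -0.55 (unadjusted p 0.115).

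Nr1d1 (chromosome 11, 98767932 to 98775333), the REV-ERB alpha repressor, ran from 17.3 to 24.8 CPM at 12 weeks and from 6.14 to 13 CPM at 16 weeks, without overlap (-1.05 on the log2 scale, SE 0.18, adjusted p 0.0509; -0.88 in MRL/+). Arntl stood at 5.48 ± 1.69 and 13.4 ± 7.12 CPM (1.28, adjusted p 0.276), and Nfil3, a repressor at the sites of Dbp, at 9.94 ± 0.871 and 14.7 ± 2.65 CPM, without overlap (0.56; 0.58 in MRL/+).

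Over the 19 clock genes, 1 was called, 4 had an unadjusted p under 0.05 on the higher side and 5 on the lower, and the median was 0.057. The higher 4 included Nfil3, Arntl and Cry1, and the lower 5 Dbp, Nr1d1, Nr1d2, Ciart and Bhlhe41. Dbp and the Per genes differed in size: the log2 fold changes of Per1, Per2 and Per3 were 0.09, 0.35 and -0.35. Per1 stood at 32.5 ± 4.67 and 34.6 ± 6.06 CPM in MRL/lpr, while in MRL/+ it ran from 34.9 to 43.9 CPM at 12 weeks and from 20.3 to 24.9 CPM at 16 weeks. It had the lowest p of all genes in the strain by age interaction (difference of log2 fold changes 0.96, unadjusted p 0.00043, adjusted p 0.361), which did not pass. E-boxes (CACGTG, its own reverse complement) were found in 5 of the 16 clock promoters that matched and in 6.04% of all promoters. The 5 were those of Per1, Cry1, Tef, Ciart and Bhlhe41, with neither Dbp nor Nr1d1 among them. Noct, a rhythmic gene whose product removes phosphate from dinucleotide cofactors, stood at 28.5 ± 4.20 and 41.4 ± 5.99 CPM (0.54, adjusted p 0.152; 0.05 in MRL/+).

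Cirbp, the cold-inducible RNA-binding protein, stood at 59.8 ± 8.67 and 34.4 ± 12.4 CPM (log2 fold change -0.80, adjusted p 0.171; -0.78 in MRL/+). Replicates 2 and 3 of 16 weeks, at 51.5 and 47.8 CPM, lay inside the range of 12 weeks, and the other 4 lay between 21.9 and 33.1. Rbm3, a related cold-inducible gene, had a log2 fold change of -0.19. Tra2a, a splicing factor, stood at 58.8 ± 10.6 and 96.1 ± 18.9 CPM (0.71, adjusted p 0.13; 0.81 in MRL/+).

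Dusp6, a feedback inhibitor of the ERK pathway, rose at 16 weeks in MRL/lpr. Dusp6 (chromosome 10, 99263231 to 99267489), a phosphatase that removes the activating phosphates of ERK and is itself transcribed when ERK is active, ran from 13.2 to 20.2 CPM at 12 weeks (median 15.2) and from 24.2 to 30 CPM at 16 weeks (median 29.1). No library of 16 weeks came down to the range of 12 weeks. The rise was 1.75-fold (log2 fold change 0.81, SE 0.14, adjusted p 0.040). MRL/+ held 13.8, 7.91 and 11.4 CPM at 12 weeks and 10.9, 11.7 and 14.4 at 16 weeks (0.16, unadjusted p 0.418), and the interaction had an unadjusted p of 0.0137 (adjusted p 0.361). Dusp6 was called in 4 of 18 fits that each left out 1 library, those without MRL/lpr 12 weeks replicate 6 or MRL/+ 12 weeks replicate 1 or 2 or 16 weeks replicate 3, and its adjusted p over the 18 ran from 0.021 to 0.15. Spred1, which restrains Ras and so the same pathway, stood at 30.2 ± 4.06 and 42.2 ± 3.47 CPM without overlap (0.48, adjusted p 0.108). Of the 15 immediate early genes, which ERK signalling also drives, 9 had a positive log2 fold change, 1 had an unadjusted p under 0.05 and the median was 0.15.

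Fscn2, best known from photoreceptors, fell at 16 weeks, and Rd3, also of the retina, had a negative value that did not pass. Fscn2 (chromosome 11, 120361534 to 120368168), an actin-bundling protein of photoreceptors and hair cells, ran from 5.94 to 8.67 CPM at 12 weeks (median 7.74) and from 2.91 to 4.83 CPM at 16 weeks (median 3.50). The groups did not overlap, and the fall was 2.08-fold (log2 fold change -1.05, SE 0.17, adjusted p 0.034). MRL/+ stood at 9.16 ± 1.84 and 8.79 ± 2.34 CPM (-0.06), with an interaction of -1.0 (unadjusted p 0.0028, adjusted p 0.361). Fscn2 was called in 7 of 18 fits that each left out 1 library, with adjusted p from 0.021 to 0.118; the calls were kept without MRL/lpr 12 weeks replicate 6, 16 weeks replicate 6, MRL/+ 12 weeks replicate 1 or 2, or any MRL/+ library of 16 weeks. Rd3, which inhibits retinal guanylate cyclase, stood at 10.6 ± 2.36 and 4.93 ± 1.47 CPM (-1.11, adjusted p 0.0997; -0.14 in MRL/+).

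The pineal gland shares many genes with photoreceptors and lies close to the choroid plexus of the third ventricle. All 7 tested pineal genes had a negative log2 fold change, 5 with an unadjusted p under 0.05, and the list's median was -2.46. Without the 2 libraries high in these transcripts, 2 of 5 tested genes were positive, none had an unadjusted p under 0.05 and the median was -0.07. Without replicate 1 of 12 weeks alone it was -1.54. Pineal transcripts were high in replicates 1 and 4 of 12 weeks. Fscn2 in the other 4 libraries of that age ran from 5.94 to 8.45 CPM, above all of 16 weeks. Without those 2 libraries the log2 fold change of Fscn2 was -1.0 (adjusted p 0.187). What share of the difference in Fscn2, or of the other differences, pineal RNA carries was not tested.

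Motile cilia genes had negative values that moved with the same libraries. None of the 12 tested genes of ependyma and cilia was positive, 4 had an unadjusted p under 0.05, 0 were called, and the median was -0.42. In MRL/+ the median of the same genes was -0.35, with 4 positive and 3 lower at an unadjusted p under 0.05. In MRL/lpr, Hydin, a protein of the central pair of cilia, stood at 13.8 ± 4.81 and 8.47 ± 2.99 CPM (log2 fold change -0.71). The dynein chain gene Dnaic1 stood at 20.9 ± 3.17 and 15.6 ± 2.86 CPM (-0.42). Without the 2 libraries high in pineal transcripts the MRL/lpr median was -0.16 and 5 of the genes were positive. Ttll9, a tubulin-modifying enzyme of cilia, had a log2 fold change of -0.51 (adjusted p 0.118; 0.09 in MRL/+), without overlap between the ages.

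Lymphoid transcripts were present in the choroid plexus of MRL/lpr at both ages and were not separated by age. A bulk sample cannot tell more cells of a type from more RNA per cell. Cxcl13, which attracts B cells to follicles, ran from 24.0 to 122 CPM at 12 weeks (median 49.5) and from 33.5 to 208 CPM at 16 weeks (median 75.6), against 0.636 to 2.19 CPM in MRL/+. Its ages overlapped nearly throughout (log2 fold change 0.65, 95% interval -0.22 to 1.51, adjusted p 0.791). Ccl8, a chemokine of macrophages, stood at 118 ± 80.8 and 252 ± 163 CPM (1.10, unadjusted p 0.0248, adjusted p 0.631). Of 11 tested chemokines of tertiary lymphoid structures, 9 were positive and 1 had an unadjusted p under 0.05, with a median of 0.49. Ccl21a had 0 counts in every library, and Ccl19 had a log2 fold change of -0.08. Among lymphoid organisation genes, 13 of 16 were positive with a median of 0.29; lymphotoxin beta (Ltb) had 0.36, and the CXCL13 receptor gene Cxcr5 1.05.

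B cell genes overlapped widely between the ages. Ms4a1, which codes for CD20, ran from 4.27 to 27.7 CPM at 12 weeks (median 13.3) and from 1.23 to 38.1 CPM at 16 weeks (median 12.0). Both the highest and the lowest value belong to 16 weeks (log2 fold change 0.04, 95% interval -1.21 to 1.29). Over 17 B cell genes, 15 were positive, none had an unadjusted p under 0.05, and the median was 0.34. Without replicate 1 of 16 weeks it was -0.08, with 6 of 16 genes positive. Without replicate 6 of 12 weeks it was 0.82, with 16 of 16 positive, and without replicate 6 of 16 weeks 0.56, with 17 of 17 positive. It was 0.20 without replicate 3 and 0.23 without replicate 5 of 12 weeks, 0.21 without replicate 4 of 16 weeks, and 0.66 with limma voom. Summed over the list, B cell transcripts ran from 45.5 to 232 CPM at 12 weeks and from 14.1 to 307 CPM at 16 weeks.

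Transcripts of antibody secretion had mostly positive values and no call by edgeR. Igkc, the kappa light chain constant region, ran from 949.8 to 3389 CPM at 12 weeks (median 1338) and from 168 to 8004 CPM at 16 weeks (median 4832). Replicates 1, 2 and 4 of 16 weeks lay above every library of 12 weeks, while replicate 6 lay below them all (log2 fold change 1.31, 95% interval -0.02 to 2.64, adjusted p 0.743). Jchain, which links the units of secreted IgM and IgA, stood at 546 ± 189.9 and 1144 ± 850.3 CPM (1.07, adjusted p 0.758). The heavy chain Ighg1 had 1.68 (unadjusted p 0.031, adjusted p 0.671) and the light chain Iglc2 1.07 (unadjusted p 0.0074, adjusted p 0.481). Reads of near-identical constant regions may have been shared between genes. Of 12 constant region genes, 11 were positive, 2 had an unadjusted p under 0.05 and the median was 0.95, or 0.66 without replicate 1 of 16 weeks and 1.18 without replicate 6. With limma voom the median was 1.27 and 7 of 12 had an unadjusted p under 0.05. All 14 plasma cell genes were positive, with a median of 0.67 and 1 unadjusted p under 0.05. Without replicate 6 of 16 weeks the plasma cell median was 0.87 with 6 such genes, without replicate 6 of 12 weeks 0.86 with 6, and without replicate 1 of 16 weeks 0.47. Limma voom gave 1.01, with 9 of 14 genes at an unadjusted p under 0.05, and called 1 of them (Xbp1); DESeq2 also called 1.

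As a share of all counts, the constant regions took 0.361 ± 0.231% at 12 weeks (0.173% to 0.767%) and 0.879 ± 0.683% at 16 weeks (0.0355% to 1.57%). The difference in means was 0.518 percentage points (exact two-sided permutation test over the 12 libraries, p = 0.13). Without replicate 6 of 16 weeks it was 0.687 points (exact permutation p = 0.0411), so that 1 library decided whether the share passed. Of 346 immunoglobulin variable segments, which differ between B cell clones, 136 passed the low-count filter. A segment could pass through the libraries of 1 age alone. Ighv1-22, for one, held at most 0.334 CPM at 12 weeks and up to 6.41 CPM at 16 weeks. Of the 136, 110 were positive, with a median of 0.89, and 34 had an unadjusted p under 0.05 on the higher side. The filter can itself shift these counts and this median, so they do not show a rise. The segment with the most counts was shared by some libraries and not by others. Among kappa segments, Igkv10-96 led in replicate 2 of 16 weeks (24.9% of the kappa variable counts) and replicate 3 of 12 weeks (11%), and Igkv12-46 led in replicates 1 and 3 of 16 weeks (14.1% and 13.8%). Igkv19-93, at 31.7%, led in replicate 2 of 12 weeks. Among heavy chain segments, Ighv6-6 led in replicate 3 of 12 weeks and replicate 2 of 16 weeks, and Ighv1-82 in replicates 4 and 5 of 16 weeks. Ighv6-6 (31.8%) and Igkv10-96 (19%) also led in MRL/+ 12 weeks replicate 2, at only 0.55 and 0.63 CPM. Igkv10-96 led in MRL/+ 12 weeks replicate 3 and 16 weeks replicate 2 as well. Why libraries share a leading segment was not tested.

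**Figure D3:**
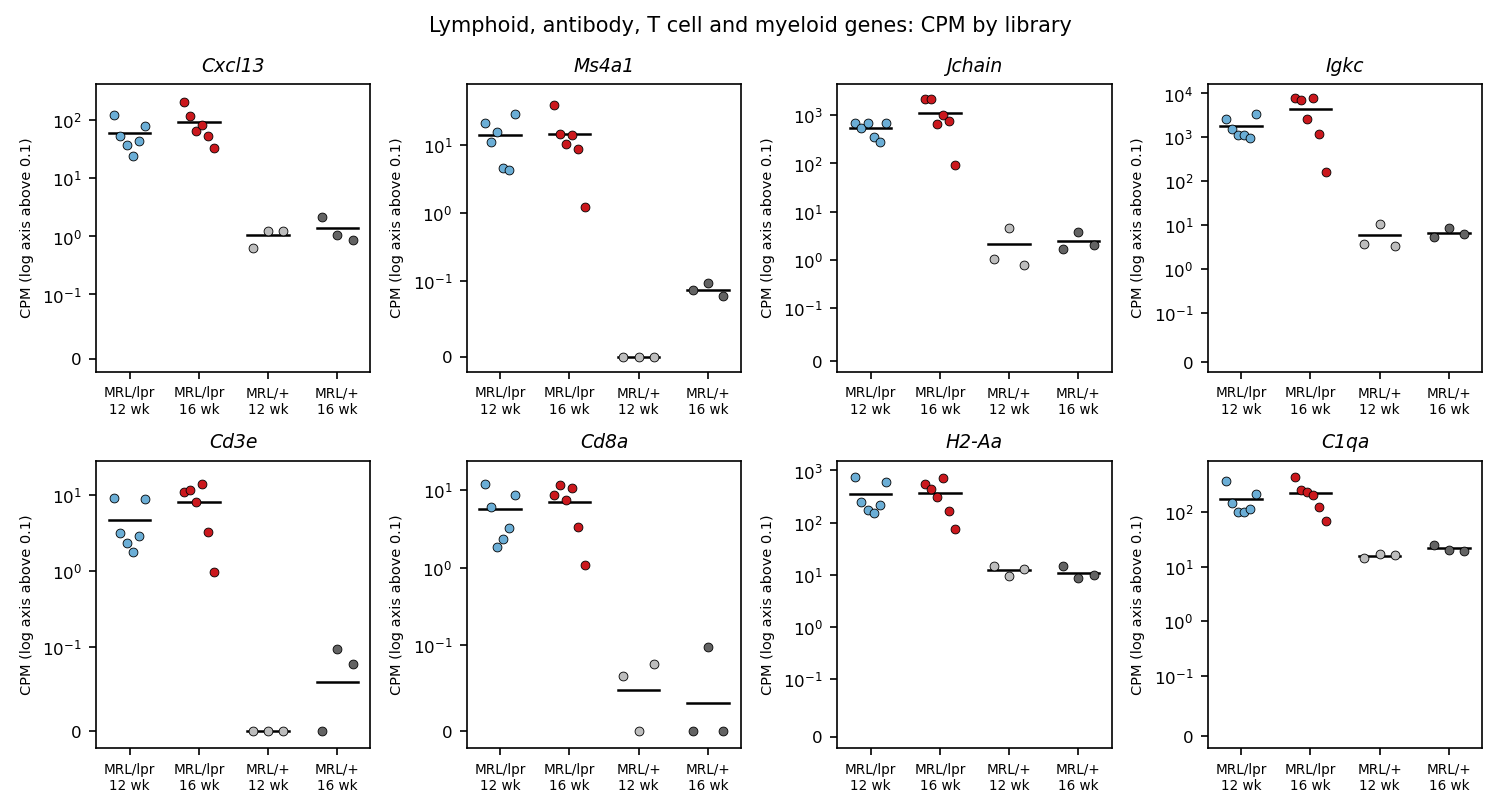
CPM of single libraries (points) and group means (lines) on a log axis for genes of lymphoid chemokines, B cells, antibody, T cells, antigen presentation and complement. The 2 MRL/lpr ages overlap in every panel, and replicate 6 of 16 weeks (last red point) is the lowest library of its group in all 8.

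T cell genes were positive as a list and spread widely within each age. All 22 were positive, with a median of 0.55 and 1 unadjusted p under 0.05. That gene, Tcf7, a transcription factor of naive and memory T cells, stood at 8.61 ± 5.10 and 18.2 ± 12.2 CPM (log2 fold change 1.08, unadjusted p 0.0308, adjusted p 0.67). The CD3 chain gene Cd3e ran from 1.77 to 9.01 CPM at 12 weeks and from 0.983 to 14 CPM at 16 weeks (0.80, 95% interval -0.39 to 1.98). The coreceptor genes Cd4 and Cd8a had log2 fold changes of 0.53 and 0.33. Without replicate 6 of 16 weeks, the T cell median was 0.75 and 8 of the genes had an unadjusted p under 0.05. It was 0.90 without replicate 1 and 0.89 without replicate 6 of 12 weeks, with 5 such genes each, and 0.46 with 0 without replicate 1 of 16 weeks. Limma voom gave a median of 1.19 and 18 of 22 genes at an unadjusted p under 0.05, with none called.

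Follicular helper and germinal centre genes gave no call. Of 12 tested, 11 were positive, with a median of 0.36 and none with an unadjusted p under 0.05. The follicular repressor Bcl6 had a log2 fold change of 0.48, the inhibitory receptor gene Pdcd1 0.50 and the helper cytokine gene Il21 0.03 (95% interval -0.42 to 0.49). All 13 tested genes of cytotoxic and natural killer cells were positive, with a median of 0.52, among them Gzmb (0.90) and Prf1 (1.13). The median was 0.98 over 12 genes without replicate 1 of 12 weeks, 0.33 without replicate 2 of 16 weeks, and 1.34 with limma voom, where 9 of 13 had an unadjusted p under 0.05.

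Macrophage and antigen presentation genes gave no call by edgeR. Of 19 macrophage genes, 15 were positive and 2 had an unadjusted p under 0.05, with a median of 0.33 (0.44 in MRL/+, also with 15 positive). The median was 0.16 with 0 such genes without replicate 1 of 16 weeks, 0.52 with 4 without replicate 6 of 16 weeks, 0.22 without replicate 3 of 12 weeks, and 0.62 with all 19 positive without the 2 libraries highest in pineal transcripts. Without replicate 1 of 12 weeks 18 were positive and 5 had an unadjusted p under 0.05. Limma voom gave a median of 0.71, with 10 of 19 at an unadjusted p under 0.05. Ms4a7, a marker of macrophages at the brain's borders, stood at 19.2 ± 7.53 and 33.1 ± 17.3 CPM (log2 fold change 0.79, unadjusted p 0.0217, adjusted p 0.626). The Fc receptor gene Fcgr1 had 0.85 (unadjusted p 0.0433, adjusted p 0.71) and the lipid receptor gene Trem2 0.71 (unadjusted p 0.0219). C1qa, a chain of complement C1q, ran from 98.7 to 378 CPM at 12 weeks and from 67.6 to 433 CPM at 16 weeks. For class II antigen presentation, 8 of 12 genes were positive with a median of 0.13, which ran from -0.08 (without replicate 4 of 16 weeks) to 0.46 (without replicate 1 of 12 weeks) when 1 library was left out and was 0.59 with limma voom; H2-Aa stood at 357 ± 255 and 378 ± 240.0 CPM (0.08, 95% interval -0.93 to 1.09). All 14 class I genes were positive, with a median of 0.43 and no unadjusted p under 0.05. Proliferation genes had a median of 0.28, with 18 of 20 positive, and Mki67 had 0.62.

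The type I interferon response was much smaller without 1 library. Type I interferons activate transcription factors that bind paired GAAA repeats before genes of antiviral defence. The promoters of Oas1a, a sensor of double-stranded RNA, and Ifit3, which binds foreign RNA with its relatives, are shown because both hold 2 such repeats (GAAA, any 2 bases and GAAA again, on either strand, in capitals). They are the 250 bases before the RefSeq start on GRCm38.p6, at chr5:120907526-120907775 (minus strand) and chr19:34583279-34583528 (plus strand).
Oas1a: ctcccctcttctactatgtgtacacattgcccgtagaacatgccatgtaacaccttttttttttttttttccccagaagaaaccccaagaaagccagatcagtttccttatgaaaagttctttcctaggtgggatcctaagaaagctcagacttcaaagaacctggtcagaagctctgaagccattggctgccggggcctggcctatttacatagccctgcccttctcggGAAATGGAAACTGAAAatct
Ifit3: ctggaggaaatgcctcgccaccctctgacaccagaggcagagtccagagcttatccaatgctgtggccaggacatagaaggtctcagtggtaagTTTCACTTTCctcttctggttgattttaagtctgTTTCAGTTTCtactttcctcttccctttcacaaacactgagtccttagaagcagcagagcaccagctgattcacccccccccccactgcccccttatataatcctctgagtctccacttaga
In Oas1a the 2 matches overlap and end 10 and 4 bases before the start, and in Ifit3 they lie on the minus strand and end 146 and 112 bases before it. The motif is in 3.05% of all promoters and in 8 of the 17 response genes that matched a promoter.

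Oas1a held 5.17, 3.12, 2.34, 0.92, 1.57 and 5.94 CPM in replicates 1 to 6 of 12 weeks and 49.1, 10.1, 4.75, 8.11, 3.59 and 1.15 CPM in those of 16 weeks (log2 fold change 2.01, unadjusted p 0.0092, adjusted p 0.537). Ifit3 held 24.9, 22.6, 12.8, 7.88, 6.18 and 10.5 CPM, and then 273, 48.8, 27.5, 13.2, 15.8 and 3.85 CPM (2.17, unadjusted p 0.0106, adjusted p 0.561). Replicate 1 of 16 weeks exceeded the next library by several-fold in both genes, and replicate 6 was below most libraries of 12 weeks. Isg15, a ubiquitin-like modifier, had a log2 fold change of 2.22, Mx1, a GTPase against viruses, 2.12 (adjusted p 0.57) and Ifit1 1.90 (adjusted p 0.575).

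Of the 25 genes of the list, all were positive, 18 had an unadjusted p under 0.05, 0 were called and the median was 1.48; in MRL/+ the median was -0.13. Limma voom gave a median of 1.23, with 21 of 25 genes at an unadjusted p under 0.05 and 0 called. Without replicate 1 of 16 weeks all 25 stayed positive, the median was 0.37 and 0 had an unadjusted p under 0.05. That library was the highest of its age in 25 of 25 genes, at a median of 9.21 times the median of the other 5 (range 1.47 to 17.3). The same ratio was 2.09 over 19 interferon gamma genes, 3.59 over 17 B cell genes and 1.43 over 22 T cell genes. Counts of the interferon genes themselves were near 0: Ifnb1 had 3 counts in this library and 1 in replicate 1 of 12 weeks. With the replicate number as a block the type I median was 0.97 and 6 genes had an unadjusted p under 0.05. For interferon gamma, all 19 genes were positive with a median of 0.57 and none had an unadjusted p under 0.05. That median was 0.34 without replicate 1 and 0.38 without replicate 2 of 16 weeks, and 0.79 with 7 such genes without replicate 6 of 16 weeks. Without the 4 libraries highest in neuron transcripts it was 0.94 with 8 such genes, and limma voom gave 1.08 with 15 of 19.

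**Figure D4:**
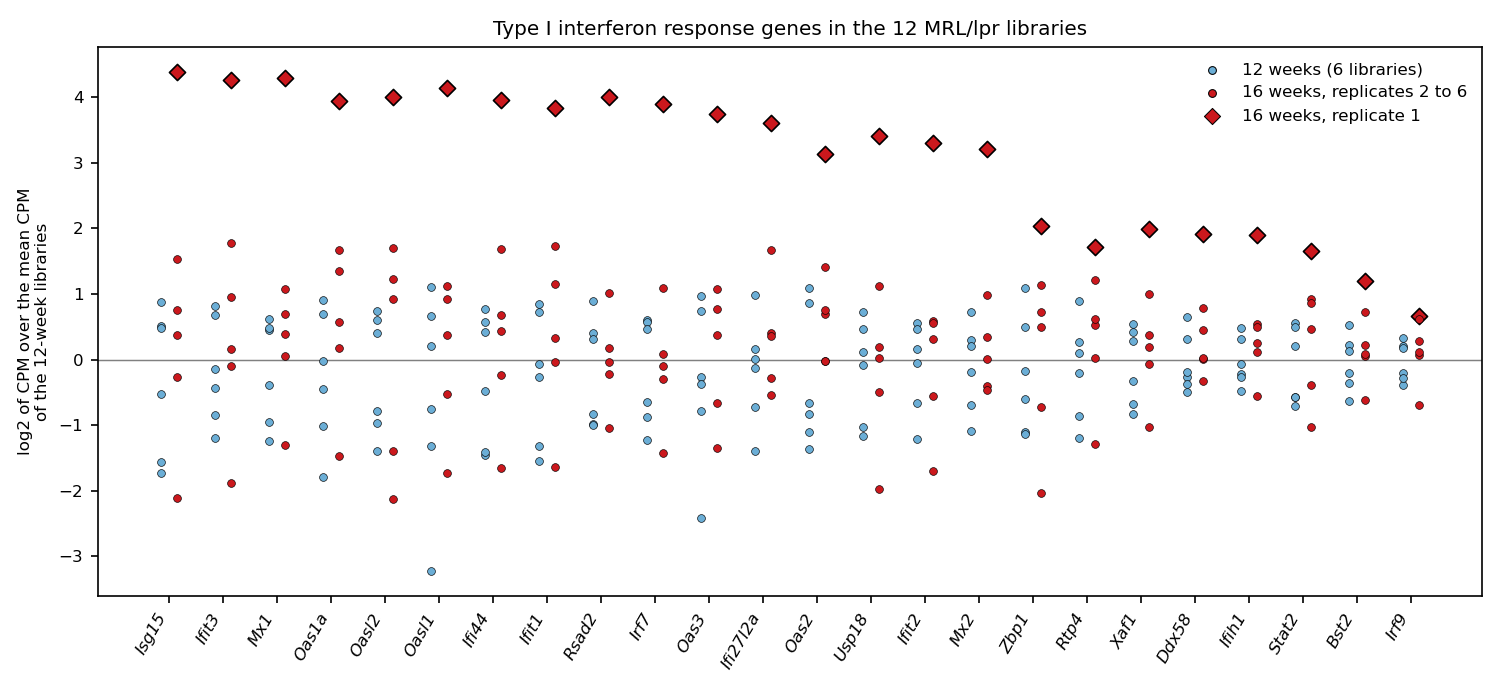
Type I interferon response genes (1 of the 25 not shown) in the 12 MRL/lpr libraries, as log2 of CPM over the mean CPM of the 12-week libraries (blue circles: 12 weeks; red circles: 16 weeks replicates 2 to 6; red diamonds: 16 weeks replicate 1). The diamonds are the highest point of 16 weeks in every gene shown, and the red circles overlap the blue ones.

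The tissue's own cells gave no call. Of 27 choroid plexus epithelium genes, 5 were positive, with a median of -0.12, or 0.11 when scaled to their own sum without Ttr, mostly Enpp2. Ttr, the thyroid hormone carrier that these cells make in bulk, took 18.2 ± 1.79% of counts at 12 weeks and 15.9 ± 2.17% at 16 weeks. Krt18, an epithelial keratin, stood at 253 ± 51.8 and 192 ± 23.4 CPM (log2 fold change -0.40, unadjusted p 0.0073). Junction genes had a median of 0.03 and endothelial genes -0.10. Of 18 fibroblast and matrix genes, 3 were positive, with a median of -0.26, or 0.01 with 11 positive under the epithelium scaling; Lum, a proteoglycan of collagen fibrils, and Pdgfra, a growth factor receptor of fibroblasts, had -0.61 and -0.36, both with an unadjusted p under 0.05. The mitochondrial genome share of counts was 7.79 ± 1.88% and 7.48 ± 2.0% (difference -0.302 points, exact two-sided permutation p = 0.779).

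Transcripts of neighbouring brain tissue varied between libraries. All 15 neuron genes were positive, with a median of 0.79 and none with an unadjusted p under 0.05; their sum ran from 60.8 to 464 CPM at 12 weeks and from 91.5 to 862 CPM at 16 weeks. The neuron median was 0.40 with 11 of 15 positive without replicate 3 of 16 weeks, and 0.21 with 11 positive with limma voom. Without the 4 libraries highest in neuron transcripts it was 0.11 with 10 positive; no gene was then called, and Hsph1 had a log2 fold change of 1.01 (adjusted p 0.0529). Astrocyte genes had a median of 0.40 and oligodendrocyte genes of -0.22. Pomc, the hormone precursor of the pituitary, stood at 3.94 ± 3.75 and 0.429 ± 0.341 CPM (log2 fold change -3.18). The part of these transcripts in the called genes was not tested.

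**Figure D5:**
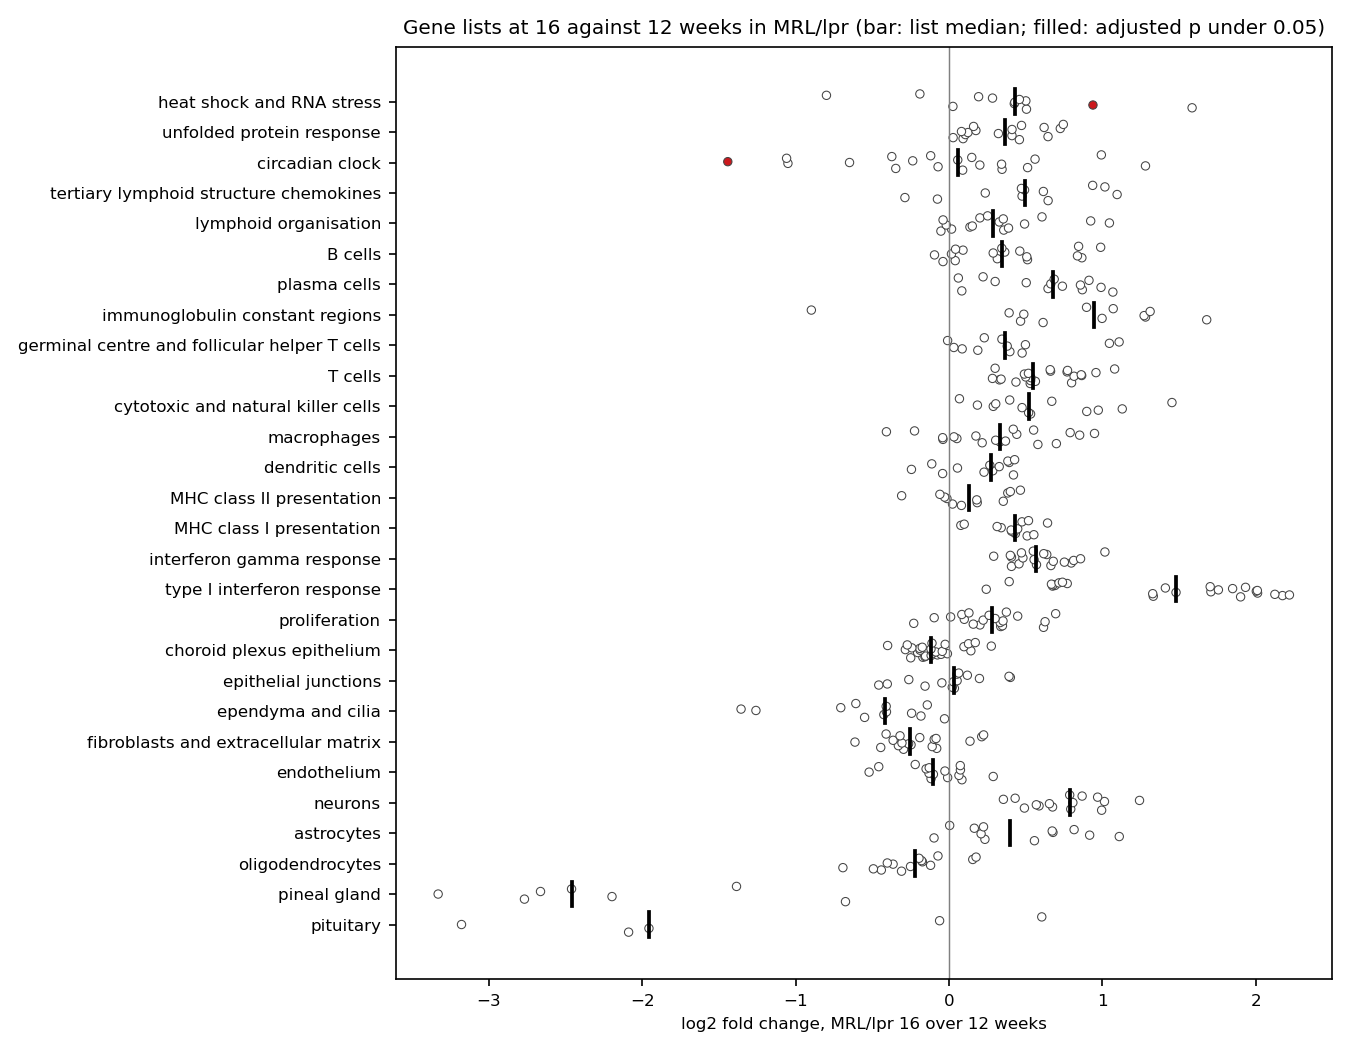
Each point is the log2 fold change of 1 gene, MRL/lpr 16 over 12 weeks, in 28 gene lists; black bars are list medians and filled points passed an adjusted p under 0.05. Medians are above 0 for the chaperone, immune and neuron lists and below 0 for the cilia, fibroblast, pineal and pituitary lists, and the 2 filled points are Hsph1 and Dbp.

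No gene showed an age difference that differed between the strains at an adjusted p under 0.05. By edgeR's quasi-likelihood test the interaction had 2286 genes with an unadjusted p under 0.05 (13.8%), and 0 were called. That number rested on single libraries. It was 596 without MRL/+ 12 weeks replicate 1, which held 772 CPM of neuron and 611 CPM of cerebellum transcripts. Without MRL/+ 16 weeks replicate 1 it was 1207, and without MRL/lpr 12 weeks replicate 6 it was 4075. Without the 4 libraries highest in pineal, cerebellum and muscle transcripts it was 201. In MRL/+ alone 0 genes were called between the ages and 2173 had an unadjusted p under 0.05 (13.1%), which with 3 libraries per age does not show that nothing differed. After Per1, the named gene with the lowest interaction p was Slc25a25, a mitochondrial carrier (log2 fold changes 0.08 in MRL/lpr and -0.57 in MRL/+, unadjusted p 0.00061). The skeletal muscle genes Tnni2 and Mylpf were also among the lowest; replicate 1 of MRL/+ 16 weeks held 95.9 and 145 CPM of them and 642 CPM of muscle transcripts in all. Of the called genes, Ahsa1 had an unadjusted p under 0.05 with the same sign in MRL/+, Hsph1 0.29 on the log2 scale (unadjusted p 0.088), and Dusp6 and Fscn2 were near 0 there, while none of these differences between strains passed.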

How the data were processed

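RNA from dissected, frozen choroid plexus was sequenced as TruSeq v2 libraries, per the labels' protocols. The authors deposited raw counts of reads per gene, made with STAR 2.5.3a, the genome GRCm38 and featureCounts 1.26.0, per the submitters' processing notes, which also name DESeq2 1.16.1. The annotation release, multimapping and strand settings were not given in the sources used here, so overlapping and near-identical genes are uncertain. Total counts ran from 11164284 to 14602253 per library.

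Counts were analysed with edgeR 4.0.16 in R 4.3.3: filterByExpr by group, TMM scaling, 1 mean per group over all 18 libraries, the robust quasi-likelihood test and Benjamini-Hochberg adjustment over 16598 genes. The fit was tested on simulated counts of known change. Alternatives used DESeq2 1.42.0, limma 3.58.1 (voom), other scalings, filters and sets of libraries; 1, without the 4 libraries highest in neuron transcripts, was chosen after seeing the data. Shares of counts were set against each other by an exact two-sided permutation test, which with 6 against 6 libraries cannot go below p = 0.00216.

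The comparison, the 46 gene lists and the tests were chosen with earlier results of these data known, so the lists are described by counts and medians without a test. Genes named are a panel, the called genes filled up to 10 per direction by smallest p (mean log2 CPM of at least 1, no unnamed models or receptor segments), up to 3 per list, and 5 of the interaction; further list members were named after their values were seen, and some genes, 1 of them called, are not reported here. Promoters are from RefSeq on GRCm38.p6. Libraries of the same replicate number were compared across the ages: correlations of their deviations ran from -0.619 to 0.450, above 0.1 in 2 of 6 pairs, so the numbers were not taken as pairs. No 2 libraries of an age held the same reads (smallest chi-square per gene of 30 pairs 14.42, where 1 library sequenced again would give about 1).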

Additional observations from a re-analysis of the deposited data

Results flagged for a closer look

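In all, 156 groups of 6 MRL/lpr libraries were checked (the genes named above and 2 shares of counts, at each age). In 18, the gap of 1 library to the nearest other, as a share of the group's whole range, passed Dixon's 95% critical value. Its rate of about 1 in 20 by chance holds for independent normal values. CPM of genes that vary together are not such values, so the count cannot be set against that rate. Replicate 1 of 16 weeks was the library that passed in 6, all as the highest. Its values were 349 CPM of Ifit1, 273 of Ifit3, 134 of Isg15, 49.1 of Oas1a and 39.5 of Mx1, all type I interferon response genes, and 38.1 of the B cell gene Ms4a1. The next highest libraries of that age held 81.3, 48.8, 18.5, 10.1, 4.26 and 14.2 CPM.

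Replicate 1 of 12 weeks was the highest in 6 groups. It held 280 CPM of the chemokine gene Ccl8, 33.9 of Ms4a7 and 18.4 of Trem2, which macrophages express, where the next libraries held 104, 18.3 and 9.63. It also held 0.834 CPM of Hspa1b, 30.4 of Slc25a25 and 1.5 of Tnni2.

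Replicate 6 of 12 weeks was the highest in 3, with 6.22 CPM of Cxcr5, 31.6 of the proliferation gene Mki67 and 126 of Pdgfra. Replicate 6 of 16 weeks held 48.7 CPM of Spred1 and replicate 5 of that age 93.8 of Lum, the highest of their group. Replicate 4 of 12 weeks held 1080 CPM of Hspa5, the lowest of its group. No cause of these values was tested.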

How the results depend on the processing

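The count of genes called higher and lower, 3 and 3, was 36 and 48 with DESeq2, 9 and 12 with limma voom, and 0 and 0 with the 12 MRL/lpr libraries alone, without the 2 libraries highest in pineal transcripts, without the 4 highest in pineal, cerebellum and muscle transcripts, and without the 4 highest in neuron transcripts. Scaling to the epithelium's genes, mostly Enpp2, gave 0 lower genes. Leaving out each of the 18 libraries in turn gave 1 to 3 higher and 0 to 6 lower genes. DESeq2, voom, RLE size factors, no filter and a stricter filter on low counts each kept all 6 genes. With the replicate number as a block, 1 gene was higher (Hsph1, adjusted p 0.0253) and 0 lower; the numbers did not pair the samples, and 2 of 6 libraries correlated best with their own number. The interaction had 0 calls by edgeR, DESeq2 and voom, with 2286, 2785 and 3922 genes at an unadjusted p under 0.05. With other sets of libraries that number ran from 201 to 4075 by edgeR. The difference in immunoglobulin constant region share ran from 0.379 to 0.687 percentage points without each library; 0.687, without 16 weeks replicate 6, passed the test. That of the mitochondrial share ran from -0.902 to 0.253 and changed sign without 12 weeks replicate 3 (0.253) and without 16 weeks replicates 1 (0.0508) and 4 (0.171). Over all settings, single genes, most of them not called by the main fit, gave 5340 values. Of these, 87 lost a call, 44 gained one and 16 changed direction by more than their SE in the main fit. The other 5193 kept their side of the threshold, and any change of direction among them was within that SE. The cause of these changes was not tested.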

Other observations

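Lists not described above gave no call. Of 15 glucocorticoid response genes, 10 were positive with a median log2 fold change of 0.14, and of 8 genes of choline and betaine catabolism 1 was positive with a median of -0.15; Bhmt, which passes a methyl group from betaine to homocysteine, had -0.53 with an unadjusted p under 0.05. All 7 tested neutrophil genes were positive (median 0.61), as were 9 of 11 microglia genes (0.35), 12 of 14 leukocyte adhesion genes (0.37), 14 of 17 complement genes (0.25) and 11 of 15 cytokine genes (0.39). In MRL/+ the medians of these lists were, in the same order, 0.99, 0.03, 0.07, 0.14 and -0.55.

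Immune lists, and some others, spread more between the libraries of 16 weeks than between those of 12 weeks. The median over B cell genes of the SD of log2 CPM was 1.10 at 12 weeks and 1.62 at 16 weeks, over T cell genes 0.93 and 1.29, over plasma cell genes 0.56 and 1.15, and over type I interferon genes 0.81 and 1.62. Over dendritic cell genes it was 0.81 and 0.84. It was 0.19 and 0.36 over heat shock and RNA stress genes and 0.27 and 0.40 over clock genes. Over all genes tested it was 0.34 and 0.32. The difference in spread was not tested.

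Some genes were chosen after their values were seen. The mitochondrial ribosomal RNA mt-Rnr1 stood at 338 ± 76.1 and 654 ± 284 CPM without overlap between the ages (log2 fold change 0.95, adjusted p 0.229), while mt-Rnr2 had 0.50 (adjusted p 0.779) and the 7 tested messenger RNAs of the mitochondrial genome list a median of -0.23. The odorant receptor gene Olfr157 ran from 0 to 0.083 CPM at 12 weeks and from 0 to 0.979 CPM at 16 weeks, with 0 counts in MRL/+ (adjusted p 0.191).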
